A study of Mus musculus with 3 samples.

Results

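Heat shock chaperones bind unfolded proteins, and cells make more of them when proteins are damaged by heat or other stress. The genes described here are 8 of the 26970 genes in the expression table: *Hspa1a*, *Hspa1b*, *Hspa8*, *Hsph1*, *Dnajb1*, *Hsp90aa1*, *Hspb1* and *Hspe1*. They were taken by symbol, and each symbol had 1 row. The selection rule uses names alone, but the genes were picked with earlier results of these data known. RNA was sequenced from mandibular condyles of mice at 4 months of age in 3 genotypes: WT (+/+), *Dspp*+/- and *Dspp*-/-, with 1 library per genotype. The knockout is global and on the C57BL/6 background, and the *Dspp*+/- mice came from crossing *Dspp*-/- mice with C57BL/6 mice. The methods state that condyles (cartilage still joined to the bone beneath it) of 3 animals were pooled for WT and for *Dspp*+/-, while the number behind the *Dspp*-/- library is not given. The labels also speak of triplicates, but the table holds 1 column per genotype. There are therefore no replicates, no test between genotypes could be made, and every difference below is between single libraries. *Dspp* was not analysed here, and the genotypes rest on the labels alone.

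The HSP70 proteins hold and release unfolded chains in a cycle driven by ATP. DNAJ proteins (HSP40) bring them their clients and start ATP hydrolysis, and HSP110 proteins swap the spent ADP for ATP. HSP90 proteins complete the folding of kinases and hormone receptors, small heat shock proteins keep unfolded chains from clumping, and the mitochondrial chaperonin encloses chains inside the organelle. In stress, the transcription factor HSF1 binds heat shock elements, inverted repeats of the letters GAA, near the start of many of these genes. Chondrocytes, bone cells and muscle fibres all use these proteins, and muscle is rich in small heat shock proteins.

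The regions before the starts of the genes are shown because heat shock elements lie there in many such genes. RefSeq windows of 250 bases before the transcription start (GRCm38.p6) were matched for 6 of the 8 genes; *Hspa8* and *Hsp90aa1* were not matched. They were searched for 2 repeats in either order, GAANNTTC or TTCNNGAA, each of which reads the same on both strands. Capitals mark every match. At least 1 match was in 5 of the 6 windows, and 12.8% of all 32851 such windows hold one. The whole windows of *Hspa1a* (chr17:34972157-34972406, minus strand) and *Hspa1b* (chr17:34959239-34959488, minus strand) follow, outside any exon of GENCODE M21.

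Hspa1a: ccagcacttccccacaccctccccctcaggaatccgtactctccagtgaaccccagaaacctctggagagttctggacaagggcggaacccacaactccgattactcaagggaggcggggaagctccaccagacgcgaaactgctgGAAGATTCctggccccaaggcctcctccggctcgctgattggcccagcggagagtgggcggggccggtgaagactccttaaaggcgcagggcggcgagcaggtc
Hspa1b: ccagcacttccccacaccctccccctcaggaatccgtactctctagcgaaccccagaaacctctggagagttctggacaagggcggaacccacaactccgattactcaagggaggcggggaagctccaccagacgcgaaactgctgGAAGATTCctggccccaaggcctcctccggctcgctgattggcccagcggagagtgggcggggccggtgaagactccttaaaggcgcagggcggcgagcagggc

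From *Hspa1a* to *Hspa1b* these windows differ at 3 positions, C44T, T47C and T249G, counted from 1 at the 5′ end. None of the 3 lies in the matched element. Shorter stretches around the matches are given for *Hspb1* (chr5:135887785-135887844, plus strand), *Hsph1* (chr5:149636352-149636381, minus strand) and *Hspe1* (chr1:55088052-55088081, plus strand).

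Hspb1: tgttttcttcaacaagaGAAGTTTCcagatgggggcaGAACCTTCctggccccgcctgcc
Hsph1: tgggtagaatctTTCTCGAAggctcgagaa
Hspe1: cggtccgTTCTAGAACCTTCCGGAAggccc

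*Hspb1* had 2 separate matches and *Hsph1* had 1. In *Hspe1* 3 matches overlapped into 1 run of repeats, which also gave 2 matches to the forms with 3 repeats, GAANNTTCNNGAA and TTCNNGAANNTTC. A form with 3 repeats was in 0.466% of all windows. The *Hspe1* window lies in exons of *Hspd1* and *Hspe1*, neighbouring genes read in opposite directions, and part of the *Hsph1* window (40 bases) is annotated as an exon of *Hsph1*. In the *Dnajb1* window, of which 47 bases are annotated as an exon of *Tecr*, these letters were not found. Each gene had 1 window searched, before its RefSeq start farthest upstream, and any other start was not searched. A match describes the sequence only.

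**Figure D1:**
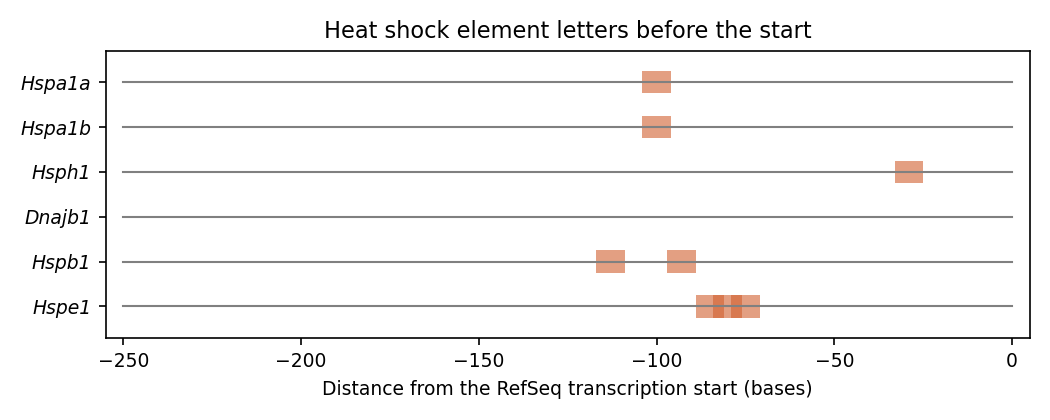
Position of the matches to GAANNTTC or TTCNNGAA (boxes) in the 250 bases before the RefSeq start of 6 genes, with distance from the start in bases on the x axis. Matches lie from 117 to 26 bases before the start in *Hspa1a*, *Hspa1b*, *Hsph1*, *Hspb1* and *Hspe1*, overlap in *Hspe1*, and are not found in *Dnajb1*.

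Levels are in FPKM, that is fragments per kilobase of gene, scaled to the depth of the library. They can be compared between genes of a library, while differences between libraries also depend on the scaling. The unit is not named in the table and was read from the values, which are whole fragments once multiplied by exon length. The depth recovered in this way was 20241576 fragments in WT, against 23613621 in *Dspp*+/- and 22253158 in *Dspp*-/-. Whole fragments came back for each of the 8 genes in each library. Intervals in the text are 95% Clopper-Pearson intervals from those fragments. They hold counting error alone, not the variation among mice. The share of all FPKM that fell on mitochondrially encoded genes was 25.0% for WT, 36.9% for *Dspp*+/- and 37.3% for *Dspp*-/-. The labelled tissue was checked against its markers. The summed level of 15 cartilage genes was 1943 FPKM in WT, against 595 in *Dspp*+/- and 901 in *Dspp*-/-. Of these, *Matn1* was near 0 in each library (0.049, 0 and 0.067 FPKM). The summed level of 12 osteoblast and osteocyte genes was 14145, 3873 and 7440 FPKM, with none at 0. Skeletal muscle was present too, as 15 muscle genes summed to 13804, 18885 and 14859 FPKM in the same order. Of these, *Tnnc2* was near 0 in each library (0, 0.053 and 0 FPKM). In such tissue, fewer cells of a type and less RNA per cell cannot be told apart.

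*Hspa8* encodes the HSP70 protein that cells make all the time (HSC70), and it was the most abundant of the 8 genes in each library. Its level was 209 FPKM in WT, against 307 in *Dspp*+/- and 240 in *Dspp*-/-, which placed it 118th, 84th and 103rd from the top among the 13026 genes that averaged 1 FPKM or more across the 3 libraries. It was highest in *Dspp*+/-, lowest in WT, and no pair of libraries was within counting error. Against WT, its FPKM in *Dspp*+/- was 1.47-fold (1.44 to 1.497) and that in *Dspp*-/- 1.15-fold (1.13 to 1.17). Of the distinct 100-base sequences in its transcripts, 28.5% also occur in other genes. The processed pseudogene *Gm15459*, in which 26.3% of its sequences occur, was at 5.60, 7.22 and 5.37 FPKM in WT, *Dspp*+/- and *Dspp*-/-. How fragments that match several genes were counted is not given in the sources used here.

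*Hspa1a* and *Hspa1b* encode the stress-inducible HSP70 and are single-exon genes on chromosome 17, at 35188166 to 35191132 and 35175412 to 35178214 in the positions of the table. These were the lowest of the 8 genes. *Hspa1a* had 3.00 FPKM in WT, against 4.77 in *Dspp*+/- and 4.20 in *Dspp*-/-, from 180, 334 and 277 fragments. *Hspa1b* had 4.74 FPKM in WT, against 5.59 in *Dspp*+/- and 5.19 in *Dspp*-/-, from 269, 370 and 324 fragments. Against WT, *Hspa1a* was higher beyond counting error in both mutant libraries, 1.59-fold (1.32 to 1.92) in *Dspp*+/- and 1.40-fold (1.16 to 1.70) in *Dspp*-/-. *Hspa1b* was 1.18-fold (1.005 to 1.38) in *Dspp*+/-, just past counting error, and 1.10-fold (0.929 to 1.29) in *Dspp*-/-, within it. Of their 100-base sequences, 47.1% of those of *Hspa1a* and 49.9% of those of *Hspa1b* occur in the other gene, so the division of fragments between them is uncertain. *Hspa1a* also overlaps the gene *Gm20481* on the other strand over 19.0% of its exon length. Summed over both genes there were 449, 704 and 601 fragments in WT, *Dspp*+/- and *Dspp*-/-. Per fragment of depth, the sum was 1.34-fold (1.19 to 1.52) in *Dspp*+/- and 1.22-fold (1.08 to 1.38) in *Dspp*-/- against WT. The mutant libraries did not differ from each other beyond counting error in this sum (1.10-fold, 0.989 to 1.23).

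*Dnajb1* (HSP40), the DNAJ partner of the inducible HSP70, had 7.46 FPKM in WT, against 7.81 in *Dspp*+/- and 8.68 in *Dspp*-/-. It was the 1 gene of the 8 with its highest level in *Dspp*-/-. Set against WT it was at 1.05-fold (0.927 to 1.18) in *Dspp*+/-, within counting error, and at 1.16-fold (1.03 to 1.31) in *Dspp*-/-, beyond it, and the interval between the mutant libraries also held 1. *Hsph1* encodes HSP110 (HSP105), which serves HSP70 as a nucleotide exchange factor. *Hsph1* had 8.71 FPKM in WT, against 16.1 in *Dspp*+/- and 9.22 in *Dspp*-/-, from 1281, 2760 and 1491 fragments. Only the *Dspp*+/- library stood apart, at 1.85-fold (1.73 to 1.97) the WT level, while *Dspp*-/- was at 1.06-fold (0.982 to 1.14). Neither gene shares a 100-base sequence with another gene of the annotation.

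*Hsp90aa1* encodes the stress-inducible cytosolic HSP90. The gene lies on chromosome 12 at 110657039 to 110669162 in the deposited positions, which are not those of GRCm38. It had 33.5 FPKM in WT, against 64.4 in *Dspp*+/- and 43.9 in *Dspp*-/-. At 1.93-fold (1.84 to 2.02) in *Dspp*+/-, it had the largest fold against WT of the 8 genes. In *Dspp*-/- the fold was 1.31 (1.25 to 1.38), and both differences were beyond counting error. The pseudogene *Gm12346*, which holds 31.6% of its 100-base sequences, was at 0.920, 1.11 and 0.937 FPKM in WT, *Dspp*+/- and *Dspp*-/-.

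*Hspb1* encodes the small heat shock protein HSP25, which binds unfolded chains and actin filaments. The gene lies on chromosome 5 at 135916773 to 135918417 in the deposited positions, which are not those of GRCm38. It had 103 FPKM in WT, against 178 in *Dspp*+/- and 127 in *Dspp*-/-. The order was again *Dspp*+/-, *Dspp*-/-, WT, with no pair of libraries within counting error. The folds against WT were 1.72 (1.63 to 1.81) and 1.23 (1.17 to 1.30). The pseudogene *Hsp25-ps1*, which holds 44.0% of the 100-base sequences of *Hspb1*, was at 0.863, 1.34 and 0.927 FPKM.

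*Hspe1* encodes HSP10, the lid of the mitochondrial chaperonin, and had 23.5 FPKM in WT, against 29.8 in *Dspp*+/- and 25.6 in *Dspp*-/-. It was higher in *Dspp*+/- than in WT by 1.27-fold (1.15 to 1.40), while *Dspp*-/- was within counting error of WT (1.09-fold, 0.984 to 1.21). *Hspe1* and *Hspd1* overlap on opposite strands over 112 bases, 7.60% of the *Hspe1* exon length, and 10.04% of its 100-base sequences occur in *AC117239.2* (1.53, 3.54 and 3.14 FPKM in WT, *Dspp*+/- and *Dspp*-/-). The library kit named in the labels was not stated to keep strand.

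**Figure D2:**
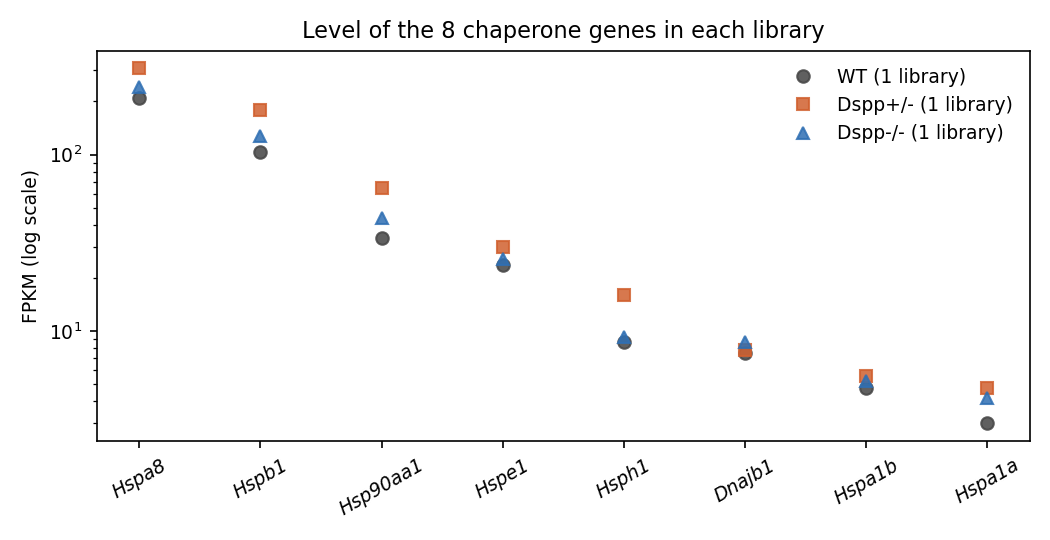
FPKM (log scale) of the 8 genes in the WT, *Dspp*+/- and *Dspp*-/- libraries, 1 point per library, ordered by the WT level. The levels run from 209 FPKM (*Hspa8*) to 3.00 FPKM (*Hspa1a*) in WT, and the *Dspp*+/- point is the highest for 7 of the 8 genes, the exception being *Dnajb1*.

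The order of the 8 genes by level was the same in each library, from *Hspa8* through *Hspb1*, *Hsp90aa1*, *Hspe1*, *Hsph1*, *Dnajb1* and *Hspa1b* to *Hspa1a*. *Hsph1* and *Dnajb1* lay close together in *Dspp*-/- (9.22 and 8.68 FPKM), and *Hsph1* was well above *Dnajb1* in *Dspp*+/- (16.1 and 7.81 FPKM). The 8 genes together had 393 FPKM in WT, against 613 in *Dspp*+/- and 464 in *Dspp*-/-, and *Hspa8* made up most of each sum.

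*Dspp*+/- was first compared with WT, at 1 library each. The loss of 1 allele therefore cannot be told apart from other differences between the 2 libraries. Differences across genes are given as log2 ratios of FPKM + 1, which understate the change of low genes. All 8 genes passed the filter of an average of 1 FPKM. Their median log2 ratio in *Dspp*+/- was 0.54, against 0.058 over the 13026 genes compared. It ranged from 0.058 for *Dnajb1* to 0.93 for *Hsp90aa1*, so all 8 were higher in *Dspp*+/-, as were 56.3% of all genes compared, although *Dnajb1* turned lower with median-ratio scaling and with scaling that leaves out hemoglobin, immunoglobulin and muscle genes. No member was at least 2-fold higher or lower, and 7.75% of all genes compared were (636 higher and 373 lower, or 465 higher and 570 lower with scaling that leaves out those genes). At 1.5-fold, 3 of the 8 were higher (*Hsp90aa1*, *Hsph1* and *Hspb1*), against 11.5% of all genes. This count is on the scale of FPKM + 1, where *Hspa1a*, at 1.59-fold in FPKM, had a log2 ratio of 0.53 and was not past it. With a pseudocount of 0.1 the log2 ratio of *Hspa1a* was 0.65, past 1.5-fold. The counting interval of the fold lay above 1 for 7 of the 8, against 39.3% of the 12710 genes compared with whole fragments. The width of an interval depends on the number of fragments. Genes were not matched on that number, here or in the comparisons below.

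*Dspp*-/- was compared with the same WT library, and the same limit holds for the loss of both alleles. The median log2 ratio of the 8 genes was 0.20, against 0.0070 over all genes compared, and it ranged from 0.074 for *Hsph1* to 0.38 for *Hsp90aa1*. All 8 were higher as deposited, as were 50.7% of all genes compared, but with scaling that leaves out hemoglobin, immunoglobulin and muscle genes *Hspa1b*, *Hsph1* and *Hspe1* turned lower. That scaling moved the median of all genes in *Dspp*-/- to -0.13, and relative to all genes the 8 were higher by 0.17 with it and by 0.19 without it. None of the 8 was past 2-fold, against 5.42% of all genes (527 higher and 179 lower, or 422 and 319 with that scaling), and none was at least 1.5-fold higher, against 8.84%. The counting interval was above 1 for 5 of the 8 genes and for 34.0% of all genes. The 5 were *Hspa1a*, *Hspa8*, *Dnajb1*, *Hsp90aa1* and *Hspb1*.

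**Figure D3:**
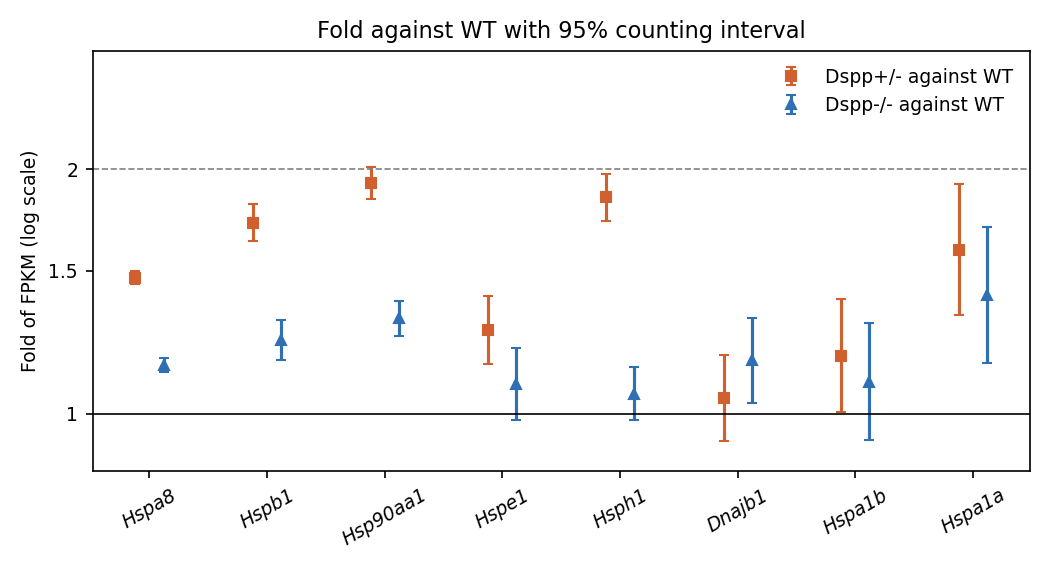
Fold of FPKM against WT (log scale) for the 8 genes in *Dspp*+/- (squares) and *Dspp*-/- (triangles), with 95% Clopper-Pearson counting intervals; the solid line is 1 and the dashed line 2-fold. The intervals of *Hspa8*, *Hspb1*, *Hsp90aa1* and *Hsph1* in the 2 mutant libraries do not overlap, whereas those of *Hspe1*, *Dnajb1*, *Hspa1b* and *Hspa1a* do.

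Set directly against each other, *Dspp*+/- was above *Dspp*-/- for 7 of the 8 genes and for 55.3% of all genes compared, and *Dnajb1* was below (0.900-fold, 0.802 to 1.01). The median log2 ratio was 0.28, against 0.037 over all genes compared. *Hsph1* differed most, at 1.74-fold (1.64 to 1.86), and was the 1 member at least 1.5-fold higher, against 4.32% of all genes. *Hsp90aa1* was 1.47-fold (1.41 to 1.53), *Hspb1* 1.39-fold (1.33 to 1.46), *Hspa8* 1.28-fold (1.26 to 1.30) and *Hspe1* 1.16-fold (1.06 to 1.28). These 5 intervals lay above 1, as did those of 34.5% of all genes, and no member was past 2-fold, against 1.65%. For *Hspa1a*, *Hspa1b* and *Dnajb1* a difference between the mutant libraries was not detectable at this depth.

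A gene can also be set against a partner of the same library, which removes the scaling of that library. *Hsp90aa1* stood at 10.5% (10.1 to 10.9) of the FPKM of *Hsp90ab1*, the constitutive HSP90, in WT. In *Dspp*+/- it stood at 15.4% (15.0 to 15.8) and in *Dspp*-/- at 13.9% (13.4 to 14.4), so the inducible form was higher relative to the constitutive form in both mutant libraries. *Hsph1* stood at 4.17% of the FPKM of *Hspa8* in WT, 5.24% in *Dspp*+/- and 3.84% in *Dspp*-/-. For *Dnajb1* the low library was *Dspp*+/-, with 3.57% of *Hspa8* in WT (3.26 to 3.91), 2.54% (2.34 to 2.76) in *Dspp*+/- and 3.62% (3.34 to 3.92) in *Dspp*-/-. For *Hspa1a* the share of *Hspa8* was 1.43%, 1.55% and 1.75%, and the intervals of the 3 libraries overlapped. *Hspa1b* had 2.27%, 1.82% and 2.17% of *Hspa8*, with overlapping intervals for WT and *Dspp*-/- and intervals of WT and *Dspp*+/- that barely met. Overlap of intervals does not by itself place a difference within counting error, and differences between these shares were not tested. *Hspe1* was at 59.8% (54.8 to 65.1) of *Hspd1*, the chaperonin barrel HSP60, in WT and at 61.2% (56.5 to 66.3) in *Dspp*-/-, but at 45.5% (42.5 to 48.8) in *Dspp*+/-. *Hspb1* was at 25.8% of *Cryab*, another small heat shock protein, in WT and 26.9% in *Dspp*-/-, with the lower value of 22.4% in *Dspp*+/-.

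**Figure D4:**
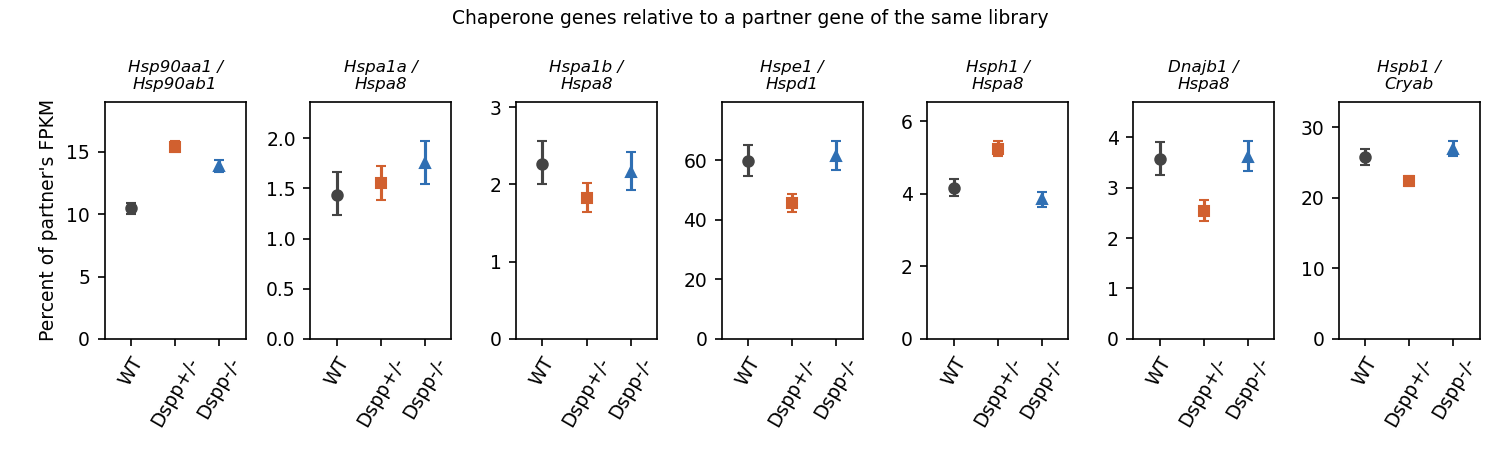
FPKM of each gene as a percent of that of a partner gene in the same library, 1 panel per pair, with 95% counting intervals and each y axis from 0. *Hsp90aa1* relative to *Hsp90ab1* is lowest in WT (10.5%), *Hsph1* relative to *Hspa8* is highest in *Dspp*+/- (5.24%), and *Hspe1* relative to *Hspd1* is lowest in *Dspp*+/- (45.5%).

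Other genes of protein folding were described in 11 lists that do not hold the 8 genes. Their counts of higher genes stand beside the 56.3% of all genes that were higher in *Dspp*+/- and the 50.7% in *Dspp*-/-. Small heat shock proteins had the highest list median in *Dspp*+/-, a log2 ratio of 0.62, with 6 of 6 genes compared higher. *Cryab* had 401 FPKM in WT, against 794 in *Dspp*+/- and 473 in *Dspp*-/-, and *Hspb6* had 273, 533 and 377 FPKM. Both were just under 2-fold in *Dspp*+/- on the log2 scale (0.98 and 0.96). In *Dspp*-/- the median of the list was 0.16, with 4 of 6 higher. The other 2 genes of the list, *Hspb9* and *Cryaa*, averaged under 1 FPKM.

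The HSP90 list, which holds the constitutive HSP90, the mitochondrial TRAP1 and their co-chaperones, had a median of 0.39 in *Dspp*+/- with 10 of 13 genes higher, and -0.016 in *Dspp*-/- with 6 of 13 higher. *Stip1*, whose protein HOP links HSP70 to HSP90, had 30.6 FPKM in WT, against 52.6 in *Dspp*+/- and 31.5 in *Dspp*-/-. *Hsp90ab1* had 320, 418 and 316 FPKM and *Trap1* had 21.4, 33.2 and 24.1 FPKM. *Stip1* and *Hsp90ab1* thus had a WT-like level in *Dspp*-/-, with log2 ratios of 0.04 and -0.02.

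Of the HSP70 and HSP110 list, 7 of 9 genes were higher in *Dspp*+/- and 5 of 9 in *Dspp*-/-, the latter a share of 55.6% and near that of all genes, with medians of 0.21 and 0.066. *Hspa9*, the mitochondrial HSP70, had 59.9, 94.0 and 73.5 FPKM in WT, *Dspp*+/- and *Dspp*-/-, and *Hspa4*, an HSP110 protein, had 23.8, 32.5 and 29.1 FPKM. The DNAJ list had medians of 0.19 and 0.12, with 15 and 13 of 17 genes higher. With scaling that leaves out hemoglobin, immunoglobulin and muscle genes, 9 and 6 of the 17 were. All genes compared then had medians below 0 too, at -0.098 in *Dspp*+/- and -0.13 in *Dspp*-/-. The shares of 56.3% and 50.7% do not apply to that scaling. Over the settings used, the median of the list in *Dspp*+/- ranged from 0.020 to 0.22. *Dnajb2* was the 1 gene of the DNAJ list past 2-fold between the mutant libraries, with 10.7 FPKM in WT, against 16.7 in *Dspp*+/- and 7.78 in *Dspp*-/-. *Dnaja2* had 50.6, 60.2 and 56.6 FPKM, *Dnajc8* 18.1, 21.9 and 23.1 FPKM and *Dnajb4* 8.45, 12.4 and 10.9 FPKM. The list of factors that exchange the nucleotide of HSP70 or dock on it had medians of 0.094 and -0.15. In this list *Bag3*, a co-chaperone that heat shock induces, had 49.4, 61.0 and 45.5 FPKM. Of the other BAG genes, *Bag1* had 95.9, 101 and 86.1 FPKM, *Bag2* 4.12, 6.01 and 6.05 FPKM and *Bag5* 13.9, 10.01 and 9.78 FPKM.

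The mitochondrial chaperones had a median of 0.14 in *Dspp*+/- with 7 of 7 genes higher (3 of 7 with scaling that leaves out hemoglobin, immunoglobulin and muscle genes), and 0.086 in *Dspp*-/- with 4 of 7 higher. Under that scaling the median of all genes compared in *Dspp*+/- was -0.098. *Hspd1* had 39.3 FPKM in WT, against 65.4 in *Dspp*+/- and 41.8 in *Dspp*-/-. The protease subunit *Clpp* had 16.5, 18.4 and 14.2 FPKM and *Clpb*, which dissolves aggregates, 3.91, 5.90 and 4.79 FPKM. The 8 subunits of the TRiC chaperonin, which folds actin and tubulin, were all higher in *Dspp*+/-, by log2 ratios of 0.15 to 0.46 with a median of 0.33, and 7 of the 8 were with that scaling. In *Dspp*-/- 5 of the 8 were higher and the median was 0.039. *Cct2* had 42.4, 47.2 and 44.3 FPKM, *Cct5* 37.97, 44.4 and 35.4 FPKM, *Cct4* 24.2, 32.1 and 29.5 FPKM and *Cct3* 10.9, 15.4 and 10.7 FPKM.

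Other stress genes did not share the higher levels of the 8 genes as a group. Of 20 chaperones and stress genes of the endoplasmic reticulum, 11 were higher in *Dspp*+/- (median 0.044) and 4 in *Dspp*-/- (median -0.25). *Serpinh1* (HSP47), which folds collagen, had 428 FPKM in WT, against 160 in *Dspp*+/- and 196 in *Dspp*-/-, and *P4hb* had 196, 133 and 135 FPKM. *Sdf2l1* had 7.22, 15.4 and 5.72 FPKM. The other stress-inducible genes had medians of -0.30 and -0.49. *Ddit4*, an inhibitor of mTOR signalling, was lower in both mutant libraries (150, 49.8 and 43.0 FPKM), while *Hmox1*, heme oxygenase, was higher (6.72, 14.4 and 11.6 FPKM). The ubiquitin gene *Ubb* had 264, 231 and 207 FPKM. The immediate early genes were balanced, with 9 of 18 higher in *Dspp*+/- and 10 of 18 in *Dspp*-/-. *Atf3* had 2.57, 6.31 and 5.76 FPKM and *Btg2* 11.7, 21.04 and 21.3 FPKM, higher in both mutant libraries. *Jund* had 46.5, 27.6 and 27.2 FPKM and *Dusp1* 39.8, 37.6 and 40.2 FPKM. Among the heat shock factors, *Hsf1* had 5.66 FPKM in WT, against 6.67 in *Dspp*+/- and 4.87 in *Dspp*-/-. *Hsf2* had 3.01, 4.09 and 4.54 FPKM, and *Hsbp1*, whose protein binds HSF1, had 40.4, 40.5 and 39.4 FPKM. The list of these factors had medians of 0.10 and -0.11 over the 4 genes compared. With scaling that leaves out hemoglobin, immunoglobulin and muscle genes, the medians in *Dspp*+/- stayed above 0 for the HSP70, DNAJ, HSP90, small heat shock protein and TRiC lists, and in *Dspp*-/- no median of the 11 lists was above 0. All genes compared then had medians of -0.098 in *Dspp*+/- and -0.13 in *Dspp*-/-.

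**Figure D5:**
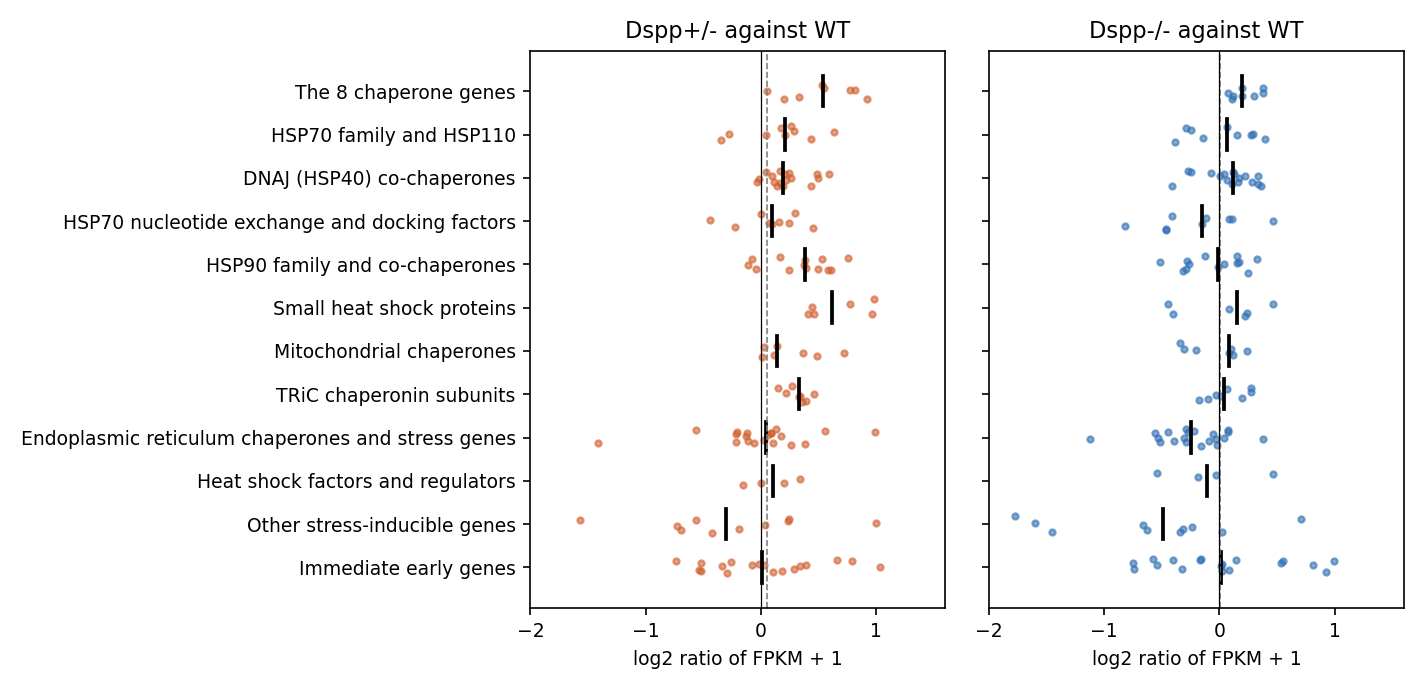
Log2 ratio of FPKM + 1 to WT for the 8 genes and for 11 lists of related genes (dots, genes averaging 1 FPKM or more; bars, list medians; dashed line, median of all genes compared), in *Dspp*+/- (left) and *Dspp*-/- (right). In *Dspp*+/- the medians of the 8 genes (0.54) and of the small heat shock proteins (0.62) lie farthest above the median of all genes (0.058), and in *Dspp*-/- no median of the 11 lists is above 0.16.

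Markers of several cell types differed between the same libraries. Of the skeletal muscle list, 11 of 14 genes compared were higher in *Dspp*+/- (median 0.42) and 8 of 14 in *Dspp*-/- (median 0.082). The summed muscle level was 18885 FPKM in *Dspp*+/- against 13804 in WT, and 14859 in *Dspp*-/-. Summed levels of the muscle, erythroid, B cell, endothelial and dividing cell lists ran in the order *Dspp*+/-, *Dspp*-/-, WT. Of the 8 chaperone genes, 7 had this order too. The neutrophil and adipocyte sums ran *Dspp*-/-, *Dspp*+/-, WT. The cartilage, osteoblast and osteocyte, and osteoclast sums ran WT, *Dspp*-/-, *Dspp*+/-. The erythroid and dividing cell sums were close in the mutant libraries, where *Hbb-bs* and *Mki67* were higher in *Dspp*-/-. In the muscle and the other marker lists the most abundant gene is named. *Acta1* of muscle had 5609, 8162 and 7150 FPKM. Within that list *Myh2* was higher in *Dspp*+/- (342, 706 and 359 FPKM) and *Myh4* lower (124, 18.2 and 111 FPKM); both were named after their values were seen. Erythroid genes had medians of 2.32 in *Dspp*+/- and 2.20 in *Dspp*-/-, with summed levels of 906, 3817 and 3684 FPKM in WT, *Dspp*+/- and *Dspp*-/- (*Hbb-bs*, 425, 1794 and 1886 FPKM). Neutrophil genes had medians of 2.16 and 2.49, with summed levels of 652, 2943 and 3892 FPKM (*S100a9*, 232, 916 and 1339 FPKM). Genes of dividing cells had medians of 1.34 and 1.10, with sums of 33.3, 116 and 112 FPKM (*Mki67*, 4.34, 26.7 and 30.5 FPKM). B cell genes had 1.28 and 1.18, with sums of 27.5, 84.0 and 68.8 FPKM (*Cd79b*, 5.90, 21.8 and 15.4 FPKM). Cartilage genes had medians of -2.12 and -1.04, with 12 of 13 lower in either library (*Col2a1*, 761, 94.2 and 308 FPKM). The osteoblast and osteocyte list had -1.55 and -0.89, with 12 of 12 lower (*Col1a1*, 6675, 1719 and 3610 FPKM). The osteoclast list had -1.25 and -0.59, with 10 of 10 lower and sums of 2306, 835 and 1348 FPKM (*Ctsk*, 863, 279 and 481 FPKM). Endothelial genes had medians of 0.20 and 0.11 and sums of 168, 187 and 176 FPKM (*Cdh5*, 48.9, 56.2 and 52.8 FPKM). Adipocyte genes had -0.0019 and 1.14 and sums of 109, 151 and 213 FPKM (*Pnpla2*, 48.4, 92.5 and 72.5 FPKM). Of the 8 adipocyte genes compared, 4 were higher and 4 lower in *Dspp*+/-, and 8 were higher in *Dspp*-/-. Between the mutant libraries 1 of the 8, *Pnpla2*, was higher in *Dspp*+/- and 7 were lower, while 55.3% of all genes compared were higher. No gene of the erythroid, neutrophil, B cell, dividing cell, osteoclast, endothelial and adipocyte lists was at 0. The part of these cell types in the levels of the 8 chaperone genes was not tested.

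The genes whose pattern was most like that of the 8 were sought among 4034 other genes averaging 10 FPKM or more, by the distance of their log2 ratios to WT in both mutant libraries from the medians of the 8 genes (0.54 and 0.20). This rests on 3 libraries, and 64 genes lay within 0.1. The nearest 5 were *Coq9*, *Mrpl44*, *Srl*, *Ndufs8* and *Pdhx*, at distances from 0.0058 to 0.035. *Coq9*, at 44.9 FPKM in WT, against 65.6 in *Dspp*+/- and 51.7 in *Dspp*-/-, was the closest.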

How the data were processed

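RNA of mandibular condyles was poly(A)-selected and read from both ends (150 bases) by CapitalBio Technology, with 1 library per genotype. The deposited table holds 1 value per gene and library, entered here as FPKM made by the authors, although its unit is not named. The submitters' processing notes list FastQC 0.11.5, HISAT2 2.1.0, StringTie 1.3.3b, DESeq 1.28.0 and the build hg38, whereas the identifiers are of mouse. None of the 8 genes has its GRCm38 position in the table, so table positions and GRCm38.p6 sequences were kept apart. The build behind those positions, the annotation, filters and treatment of multiply matching reads are not given in the sources used here.

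FPKM times merged exon length (GENCODE M21) came out as whole fragments after division by a library constant, within 0.05 fragments, for 26174 genes (98.2% of those with a length). Those fragments gave the 95% Clopper-Pearson intervals. Log2 ratios used a pseudocount of 1 and genes averaging 1 FPKM or more. The test named in the study's methods, Kruskal–Wallis, cannot be run on 1 library per genotype, so no p-value is given. Recovery of fragments and of planted 4-fold changes was tested on simulated data. Folds as small as those of the 8 genes were not planted, and genes as low as *Hspa1a* and *Hspa1b* were not among the planted ones. Named list genes are the 2 most abundant and the 2 with the largest log2 ratio in *Dspp*+/-, and for markers the most abundant. The members and lists were chosen with earlier results of these data known, and the partner pairs after their values were seen. Alternatives were 2 other pseudocounts, 4 scalings, 2 thresholds, 2 filters and *Hspa1a* summed with *Hspa1b*. The 100-base sequences were compared on both strands with all GENCODE M21 transcripts. The tools were scipy 1.17.1, pandas 2.3.3 and numpy 2.4.6 under Python 3.11.15, with matplotlib 3.10.9.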

Additional observations from a re-analysis of the deposited data

Results flagged for a closer look

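For 4 of the 11 lists of related genes the median log2 ratio to WT had opposite signs in the mutant libraries. The sign is read against 0, while the medians of all genes compared were 0.058 in *Dspp*+/- and 0.0070 in *Dspp*-/-. Each difference between *Dspp*+/- and *Dspp*-/- was not tested, since each is 1 library, and both use the same WT library. For the HSP90 family and co-chaperones the medians were 0.39 in *Dspp*+/- and -0.016 in *Dspp*-/-, a difference of 0.40. The chaperones and stress genes of the endoplasmic reticulum had 0.044 and -0.25, a difference of 0.29. Both values lay below the medians of all genes compared. The factors that act on HSP70 had 0.094 and -0.15, a difference of 0.25. The heat shock factors and regulators, with 4 genes compared, had 0.10 and -0.11, a difference of 0.21. With scaling that leaves out hemoglobin, immunoglobulin and muscle genes the medians of the last 3 of these lists were below 0 in *Dspp*+/- too, and with median-ratio scaling that of the endoplasmic reticulum list was as well (-0.022). In *Dspp*+/- the median of all genes compared was itself -0.098 with the first of these scalings. The median of the HSP90 list was above 0 in *Dspp*-/- too with upper-quartile scaling (0.011) and with scaling that leaves out mitochondrial genes (0.063). All genes compared had medians of 0.029 and 0.073 in *Dspp*-/- with these 2 scalings. None of the 8 chaperone genes had opposite signs as deposited.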

How the results depend on the processing

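Of the 45 recomputed values of the 8 genes (their median and their count past 2-fold in each comparison), 40 moved little and none reversed. The counts were 0 as deposited, and a count of 0 cannot reverse, so only the medians bear on direction. Single genes did change sign with some scalings, as given above. In *Dspp*+/- against WT their median log2 ratio was 0.42 with a pseudocount of 5 and 0.37 with scaling that leaves out hemoglobin, immunoglobulin and muscle genes. With that scaling the median in *Dspp*-/- was 0.038. All genes compared then had medians of -0.098 in *Dspp*+/- and -0.13 in *Dspp*-/-. At a threshold of 1.5-fold, 3 members in *Dspp*+/- against WT and 1 in *Dspp*+/- against *Dspp*-/- were past it, in place of 0. Over all genes, the 636 higher and 373 lower in *Dspp*+/- at 2-fold became 971 and 605 with a pseudocount of 0.1, 185 and 156 with 5, 1501 and 1166 at 1.5-fold and 124 and 24 at 4-fold, and the 636 became 281 at a mean of at least 5 FPKM. In *Dspp*-/- 527 and 179 became 836 and 363, 136 and 45, 1152 and 1070, and 103 and 6, with 228 and 110 at 5 FPKM. Between the mutant libraries 104 and 111 became 214 and 223, 36 and 36, 563 and 441, and 13 and 15, with 52 and 57 at 5 FPKM and 170 and 172 without a filter. No paired analysis was possible because each genotype has 1 library, and no library could be left out. Depth limits *Hspa1a*, *Hspa1b* and *Dnajb1* most.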
